A study of Homo sapiens with 160 samples.

Results

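CCN1, CCN2, ANKRD1, AMOTL1, AMOTL2, LATS2, AJUBA, TAGLN, ACTA2 and MYL9 are genes known as targets of the transcriptional coactivator YAP, which acts through TEAD factors, or of serum response factor (SRF), which acts with the coactivator MRTF. These 10 genes were picked by symbol from the 29273 genes of the deposited expression table, and all 10 were found. They were followed in BEAS-2B, an immortalised human airway epithelial cell line of wild-type genotype, grown to confluence and held without serum overnight. Cells then received vehicle, mometasone (a glucocorticoid, 100 nM), indacaterol (a long-acting agonist of the β2-adrenoceptor, 100 nM) or carbachol (an agonist of muscarinic receptors, 10 µM), or these agents in all 3 pairs or all together. RNA was collected after 1, 2, 6 or 18 h, which gave 32 groups, and 150 of the 160 libraries were used: 24 groups held 5 libraries, 6 held 4 and 2 held 3. The series title names crosstalk between carbachol and indacaterol as its question. All groups share the 1 cell line, so no value here comes from another line or from primary cells.

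YAP is held in the cytoplasm by the Hippo kinases, among them LATS2, and enters the nucleus when cells spread, lose contact or stiffen their actin cytoskeleton. There it raises the secreted matrix proteins CCN1 (CYR61) and CCN2 (CTGF) and the ankyrin repeat protein ANKRD1, and it also raises LATS2 and the angiomotins, which in turn hold YAP back. MRTF is released when actin monomers are used up in filaments and with SRF drives contractile genes such as TAGLN, ACTA2 and MYL9.

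The start sites of CCN2 and ANKRD1, the members that mometasone raised at every time (below), are shown because TEAD factors bind the letters GGAATG. Each line gives the 250 bases before the start, on the gene's own strand (minus for both), from RefSeq on GRCh38.p14, with GGAATG in capitals. The CCN2 stretch is chr6:131951373-131951622 and the ANKRD1 stretch is chr10:90921088-90921337.
CCN2: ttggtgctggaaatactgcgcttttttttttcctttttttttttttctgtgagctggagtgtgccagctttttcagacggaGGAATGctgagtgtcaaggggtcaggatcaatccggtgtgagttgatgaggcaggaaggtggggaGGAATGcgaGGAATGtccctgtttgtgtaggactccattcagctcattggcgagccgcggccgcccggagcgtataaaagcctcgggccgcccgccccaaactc
ANKRD1: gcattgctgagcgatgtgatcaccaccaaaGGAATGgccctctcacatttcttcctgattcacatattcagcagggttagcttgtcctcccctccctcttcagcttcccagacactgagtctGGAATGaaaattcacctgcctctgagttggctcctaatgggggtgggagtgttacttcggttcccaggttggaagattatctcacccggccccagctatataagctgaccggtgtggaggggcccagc
GGAATG began 169, 104 and 95 bases before the CCN2 start and 220 and 128 bases before the ANKRD1 start.

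Promoter windows of 300 bases (250 before the start and 50 after it) were at hand for 7 of the 10 members, in 10 windows. Both strands were searched. GGAATG was in 6 of the 10 windows, 1 each of CCN2, ANKRD1, AMOTL2, LATS2, AJUBA and ACTA2, and in 14% of all 35116 RefSeq windows of that length. The strict CArG box, CCWWWWWWGG with W for A or T, which SRF binds, was in 0 of the 10 windows and in 1.29% of all. Near matches were not counted: an ACTA2 window holds ccctatatgg and ccttgtttgg, each 1 letter off this pattern. The absence of the strict letters is thus not an absence of SRF sites. TGACGTCA, bound by the cyclic AMP factor CREB, was in 0 and in 1.85% of all. AGAACA, a core of glucocorticoid receptor sites, was in 1 window each of AMOTL2 and ACTA2 and in 14.8% of all. TGANTCA, a loose pattern for AP-1 sites with N for any letter, was in the ANKRD1 window as tgattca, 195 bases before the start, and in 7.71% of all. The stricter form, with C or G in the middle, was not counted alone, and tgattca is not a match of it. No match overlapped a match of another motif. These are matches of letters in short windows, and CCN1, TAGLN and MYL9 were not searched.

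Values are the authors' normalised expression values, which they call TPM, a per-length unit; their sums over genes differ between libraries, so they are taken as a normalised signal. Read depth is unknown. A difference is a log2 change of value + 1, and a gene is called when limma's p, adjusted over the 14827 genes tested, is under 0.05. All 10 members were above 1 in all 150 libraries, and all passed the filter on low values. The labels do not say what separates replicates, so the p-values measure a spread between samples that may be technical. In bulk RNA, a smaller share of cells making a transcript and less of it per cell cannot be told apart. TSC22D3, a glucocorticoid-induced gene, had ranges with and without mometasone that did not overlap at any time. NR4A3, a cyclic AMP-induced gene, had ranges with and without indacaterol that did not overlap at 1, 2 and 6 h and did at 18 h. KRT8 and KRT18, keratins of simple epithelia, had lowest values of 101 and 131 over the 150 libraries, but EPCAM was under 1 in all 150 and listed at 0 in 13, KRT5 and KRT19 had medians under 1, and the mesenchymal genes VIM and COL1A1 had lowest values of 1099 and 272. DES, PECAM1 and CDH5, which define muscle and endothelium, were under 1 in every library. Mitochondrial genes held 5.88 to 28.3% of the summed value, with 6 libraries over 20%.

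Mometasone moved members in both directions. It raised ANKRD1 and CCN2 at every time, and lowered AJUBA from 2 h on and CCN1 at 6 and 18 h. At 2 h CCN1 was called lower on average, but it changed by -0.64 and -0.65 with indacaterol present and by 0.05 and -0.06 without it. Averaged over the 4 backgrounds (with minus without mometasone, whichever other agents were present), 2 members were called higher at 1 h, where 1.8% of all genes were, and none lower (0.836% of all). At 2 h, 2 members were higher (4.98% of all) and 2 lower (3.59%). At 6 h, 2 were higher (18.4%) and 3 lower (14.6%). At 18 h, 3 were higher (17.6%) and 4 lower (13.8%). The members' median log2 change was 0.02, -0.02, -0.18 and -0.20 at the 4 times, beside 0.01, 0.00, 0.02 and 0.05 for all genes tested.

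Indacaterol acted on some of the same genes, with signs that differed by gene and time. At 1 h it left 2 members called higher (3.28% of all genes) and 1 lower (1.23%), and at 2 h 2 higher (8.13%) and 2 lower (5.41%). At 6 h no member was higher (6.85%) and 4 were lower (6.27%). At 18 h limma called 0 members in either direction (0.789% of all genes higher, 0.809% lower), and 4 had an unadjusted p under 0.05. Carbachol changed 1 member, CCN2, at 1 h (0.189% of all genes were higher and 0% lower). From 2 h on limma called no member with carbachol: 0.121% of all genes were higher at 2 h, 0% at 6 and 18 h, 0% were lower at each time, and 0 members had an unadjusted p under 0.05. With the replicate block, the members' calls over all times rose from 11 to 23 for indacaterol and from 1 to 3 for carbachol, while the share of all genes called over the same times rose from 8.19% to 19.1% and from 0.0776% to 0.523%. The map of averaged changes shows all of these values.

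**Figure D1:**
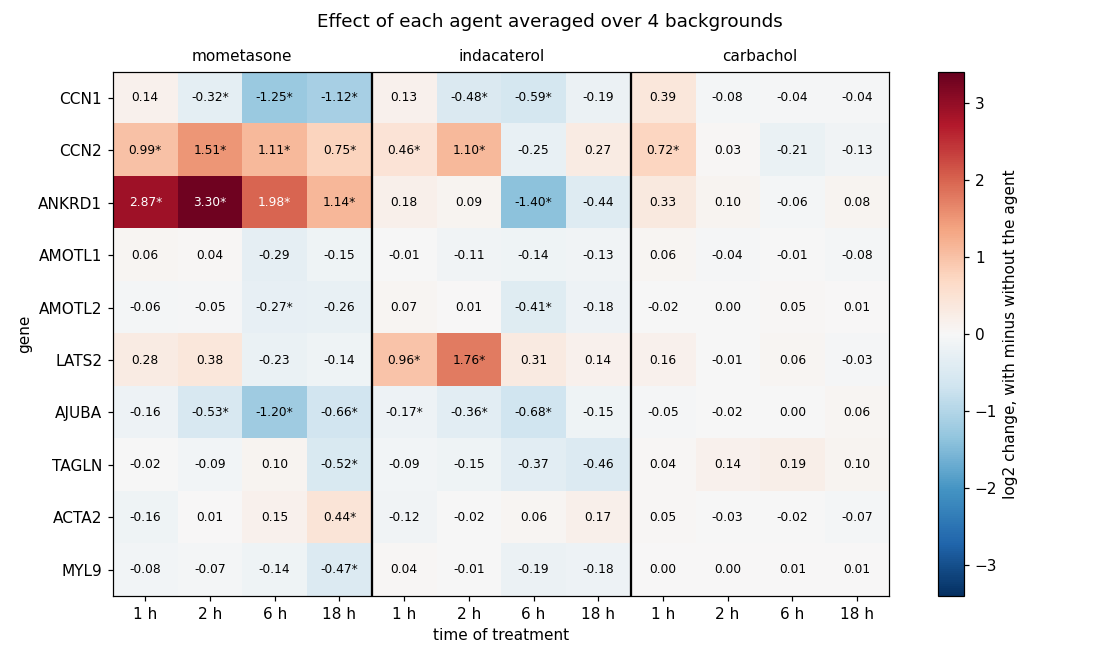
Each cell gives the log2 change of 1 gene (rows) for 1 agent and time (columns), averaged over the 4 backgrounds, and * marks an adjusted p under 0.05. ANKRD1 and CCN2 are above 0 with mometasone at every time while AJUBA is below 0 at every time and CCN1 goes from 0.14 at 1 h to values below 0, and ANKRD1 with indacaterol stands at -1.40 at 6 h.

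ANKRD1 is a cofactor of stressed heart and skeletal muscle and a much-used readout of YAP. It lies at chr10:90912096-90921087 (GRCh38.p14). In vehicle at 1 h its values, listed here and below in the order of replicate numbers 1 to 5 where present, were 25, 21.3, 24.4, 23.5 and 18.9, and with mometasone alone (replicates 1 to 4) 89.7, 179, 108 and 252. Every mometasone library lay above every vehicle library. At 2 h vehicle gave 12.3, 18.6, 19.1, 22.8 and 11.9 and mometasone 112, 164, 148, 178 and 96.9, again with no overlap. The means were 16.9 ± 4.70 (SD, n = 5) and 140.1 ± 34.5 (SD, n = 5).

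At 6 h the vehicle values of ANKRD1 were 12.6, 13.9, 19.0, 15.0 and 12.8, those with mometasone 57.4, 69.1, 78.1, 66.8 and 53.9, and those with indacaterol 4.43, 5.00, 6.02, 5.12 and 4.84. The 3 groups did not overlap: indacaterol lay below vehicle and mometasone above it. Mometasone with indacaterol gave 18.8, 29.3, 28.6, 27.2 and 18.2, between vehicle and mometasone alone, with its 2 lowest libraries under the highest of vehicle. Its log2 change against vehicle was 0.68 (SE 0.24, adjusted p = 0.0350), higher in 5 of 5 pairs. Indacaterol with carbachol gave 6.38, 4.53, 7.13, 5.05 and 3.94, overlapping indacaterol alone.

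Averaged over backgrounds, mometasone raised ANKRD1 by a log2 of 2.87 (SE 0.12, adjusted p = 9.40e-43) at 1 h and 3.30 (SE 0.12, adjusted p = 2.44e-50) at 2 h, which are 7.31-fold and 9.88-fold. The rise was 1.98 (SE 0.12, adjusted p = 1.74e-30) at 6 h and 1.14 (SE 0.14, adjusted p = 4.40e-12) at 18 h, so it was smaller than at 1 h (differences -0.89, SE 0.17, adjusted p = 2.27e-05 and -1.73, SE 0.19, adjusted p = 4.23e-14). It was higher in 18 of 18, 20 of 20, 20 of 20 and 14 of 14 same-numbered pairs. Within single backgrounds the change ran from 2.63 to 3.13 at 1 h and from 1.01 to 1.38 at 18 h.

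Indacaterol left ANKRD1 at log2 changes of 0.18 and 0.09 at 1 and 2 h, neither called (adjusted p = 0.776 and 0.792), and lowered it 2.65-fold at 6 h, a log2 change of -1.40 (SE 0.12, adjusted p = 4.91e-19), lower in 20 of 20 pairs. The 6 h effect differed from that at 1 h, by -1.59 (SE 0.17, adjusted p = 3.97e-13). Within backgrounds it ran from -1.57 to -1.30 at 6 h. At 2 h it ran from -0.28 to 0.47, negative without mometasone and positive with it, and the interaction of mometasone and indacaterol was 0.66 (SE 0.34, adjusted p = 1.00), called only with the replicate block (adjusted p = 0.0357). At 18 h the averaged change was -0.44 (adjusted p = 0.0891), and 3.64e-06 with the block. The 18 h effect was lower than the 1 h effect, a difference of -0.62 (SE 0.19, adjusted p = 0.0345), and that was not called without replicate 2, 3 or 4 (adjusted p = 0.290, 0.0990 and 0.190), with no filter on low values (0.0576) or with equal library totals (0.219).

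At 1 h the libraries of replicates 2 and 4 were the highest of ANKRD1 in each of the 4 groups with mometasone: 179 to 299.9 in replicate 2 and 252 to 411 in replicate 4, against 89.7 to 186, 108 to 195 and 122 to 151 in replicates 1, 3 and 5. TSC22D3 in the same libraries was at 197 to 453 and 197 to 445 in replicates 2 and 4, and at 53.7 to 217, 76.9 to 187 and 97.7 to 197 in the others. What separates these replicates was not tested.

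**Figure D2:**
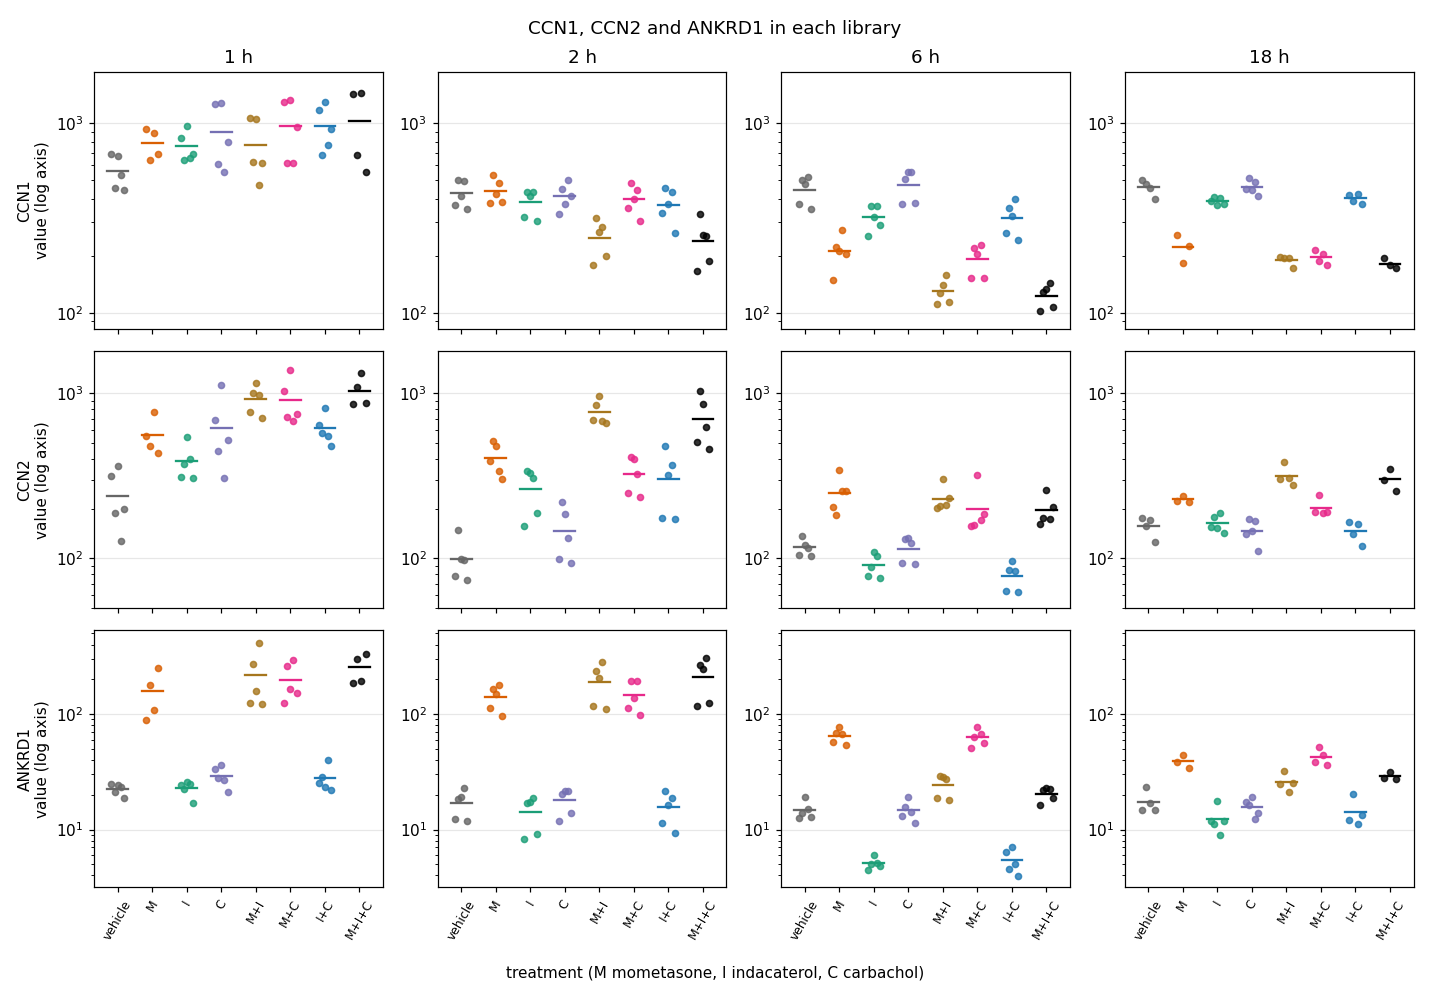
Each point is 1 library and each bar a group mean, on a log axis of the deposited value, for CCN1, CCN2 and ANKRD1 (rows) at 4 times (columns) under 8 treatments. The 4 groups with mometasone lie above the 4 without it for ANKRD1 at 1 and 2 h, and the groups with indacaterol but no mometasone are the lowest at 6 h.

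CCN2, which binds matrix, integrins and growth factors and promotes matrix deposition, is at chr6:131948176-131951372. It was the member that all 3 agents raised. In vehicle at 1 h it stood at 314, 188, 363, 127 and 198, with mometasone (replicates 1 to 4) at 551, 482, 771 and 433 and with carbachol at 688, 449, 1129, 307 and 522. Mometasone did not overlap vehicle, while carbachol replicate 4 was below 2 of the vehicle libraries; in carbachol each replicate was above the same-numbered vehicle. With indacaterol the values were 312, 374, 544, 399 and 306, overlapping vehicle. Replicate 3 was the highest in each of these 4 groups.

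At 2 h vehicle gave 78.5, 148, 98.6, 97.3 and 73.4, indacaterol 158, 339, 329, 308 and 187 and mometasone 388, 513, 482, 338 and 301. Mometasone with indacaterol gave 691, 849, 958, 677 and 664, all above every library of either agent alone. Indacaterol replicate 1 lay only just above the highest vehicle library. The log2 change of the pair against vehicle was 2.97 (SE 0.23, adjusted p = 9.16e-22), beside 2.03 (SE 0.23, adjusted p = 7.36e-12) for mometasone and 1.38 (SE 0.23, adjusted p = 2.30e-06) for indacaterol, which share the vehicle libraries. Each was higher in 5 of 5 pairs. The interaction was -0.45 (SE 0.33, adjusted p = 1.00), so no departure from adding log2 changes was called.

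At 6 h the CCN2 values were 105, 137, 121, 116 and 104 in vehicle and 204, 184, 345, 256 and 258 with mometasone, with no overlap. With indacaterol they were 77.7, 88.6, 108, 103 and 75.7, which overlapped vehicle although each was below its same-numbered vehicle library. At 18 h vehicle (replicates 2 to 5) stood at 176, 156, 172 and 125, mometasone (2 to 4) at 223, 239.7 and 219 and mometasone with indacaterol (2 to 5) at 302, 381, 306 and 279.7. The order vehicle, mometasone, pair had no overlap between neighbours at 18 h, but mometasone alone missed the threshold there (0.54, SE 0.28, adjusted p = 0.276, and adjusted p = 0.0256 with each time fitted alone). Its adjusted p with the replicate block was 0.0331, though the replicate numbers did not meet the check for pairing in that comparison.

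Averaged over backgrounds, mometasone raised CCN2 by 0.99 (SE 0.12, adjusted p = 4.09e-11), 1.51 (SE 0.12, adjusted p = 1.50e-22), 1.11 (SE 0.12, adjusted p = 4.46e-15) and 0.75 (SE 0.13, adjusted p = 1.24e-06) at 1, 2, 6 and 18 h, in every same-numbered pair. None of the later effects was called as different from that at 1 h, but with the replicate block the 2 h effect was larger (adjusted p = 7.91e-06). Indacaterol raised it by 0.46 (SE 0.12, adjusted p = 0.00687) at 1 h (12 of 18 pairs) and 1.10 (SE 0.12, adjusted p = 1.41e-14) at 2 h (20 of 20 pairs). The call at 1 h ended without replicate 2 (adjusted p = 0.192), without replicate 4 (0.487), with equal library totals (0.178) and with each time fitted alone (0.0733). The 2 h effect was larger than that at 1 h by 0.65 (SE 0.17, adjusted p = 0.0144), which was not called without replicate 1, 3 or 5 (adjusted p = 0.197, 0.0997 and 0.0679) or with equal library totals (0.164). At 6 h the indacaterol change was -0.25 (adjusted p = 0.161; 0.00165 with the replicate block), and it differed from the 1 h effect by -0.71 (SE 0.17, adjusted p = 0.00140), which was not called without replicate 4 (adjusted p = 0.0872). At 18 h it was 0.27 (adjusted p = 0.520; 0.00364 with the block). Within backgrounds the 18 h change ran from 0.00 to 0.56, with the higher values in the presence of mometasone.

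Carbachol raised CCN2 by 0.72 (SE 0.12, adjusted p = 3.70e-05) at 1 h, 1.64-fold, in 17 of 18 pairs. Given alone it gave 1.34 (SE 0.23, adjusted p = 2.37e-04), higher in 5 of 5 pairs, but with each time fitted alone the adjusted p was 0.0662, and 1.00 with only these 2 groups in the fit. At 2 h the averaged change was 0.03 (SE 0.12, adjusted p = 1.00). The effects at 6 and 18 h differed from that at 1 h, by -0.93 (SE 0.17, adjusted p = 7.48e-04) and -0.84 (SE 0.18, adjusted p = 0.0130). With equal library totals neither was called (adjusted p = 0.103 and 0.496). At 18 h that difference was not called without any 1 of replicates 1, 2, 4 and 5 (adjusted p from 0.0700 to 0.219). At 1 h indacaterol with carbachol gave 645, 576, 817, 552 and 482, and the interaction of these agents was -0.66 (SE 0.33, adjusted p = 0.478), called with the block (adjusted p = 0.0196).

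CCN1, a close relative of CCN2 that also binds integrins, at chr1:85580761-85583950, was lower with mometasone at 6 and 18 h. At 1 h its values were high in every group and spread by replicate: vehicle gave 691, 454, 677, 532 and 445 and carbachol 1261, 609, 1290.2, 556 and 797, with replicates 1 and 3 the highest in both. Mometasone alone at 1 h (replicates 1 to 4) gave 939, 643, 893 and 692, higher than the same-numbered vehicle library in 4 of 4 pairs. That difference was 0.51 (SE 0.21, adjusted p = 0.993), not called, and it was called with the replicate block (adjusted p = 1.58e-04). At 6 h vehicle gave 376, 505, 481, 524 and 352, mometasone 149, 222, 213, 275 and 205, indacaterol 254, 366, 319, 367 and 289 and the pair 111, 126, 139, 159 and 114. Mometasone lay wholly below vehicle, indacaterol overlapped vehicle, and the pair lay below every library of indacaterol alone and overlapped mometasone in 1 library of each.

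At 18 h the CCN1 ranges were 400.2 to 503 in vehicle (n = 4), 183 to 257 with mometasone (n = 3), 178 to 216 with mometasone and carbachol (n = 4) and 172 to 197 with mometasone and indacaterol (n = 4). All 14 libraries with mometasone, at 172 to 257, lay below all 18 without it, at 371 to 514.

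The averaged mometasone effect on CCN1 was 0.14 at 1 h, not called (adjusted p = 0.883), -0.32 (SE 0.10, adjusted p = 0.0207) at 2 h, -1.25 (SE 0.10, adjusted p = 3.61e-22) at 6 h and -1.12 (SE 0.11, adjusted p = 8.78e-16) at 18 h. The last 2 were 2.39-fold and 2.17-fold falls, seen in 20 of 20 and 14 of 14 pairs, and both differed from the effect at 1 h (by -1.40, SE 0.14, adjusted p = 5.15e-15 and -1.26, SE 0.15, adjusted p = 1.10e-11). At 2 h the fall was in 13 of 20 pairs, and its call ended without replicate 1, 4 or 5 (adjusted p = 0.0737, 0.0770 and 0.0823) and with equal library totals (0.224). Within backgrounds the 2 h change ran from -0.65 to 0.05, with the values near 0 in the backgrounds without indacaterol.

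Indacaterol lowered CCN1 at 2 h, with a log2 change of -0.48 (SE 0.10, adjusted p = 6.14e-05) in 16 of 20 pairs, and at 6 h, with -0.59 (SE 0.10, adjusted p = 9.53e-07) in 20 of 20 pairs. Both effects differed from that at 1 h, which was 0.13 (adjusted p = 0.861; 0.0300 with the block). Within backgrounds the 2 h change was -0.85 and -0.76 with mometasone present, and -0.16 and -0.17 without it. The mometasone by indacaterol interaction at 2 h was -0.69 (SE 0.28, adjusted p = 0.956), and with the replicate block its adjusted p was 3.60e-05. At 18 h the averaged indacaterol change was -0.19 (adjusted p = 0.724; 0.0105 with the block). With carbachol at 1 h CCN1 had an averaged change of 0.39 (adjusted p = 0.106), higher in 16 of 18 pairs, which was called with the block (adjusted p = 4.14e-11), with scaling by median ratio (0.0483) and without replicate 4 (0.0372). ANKRD1 at 1 h had a carbachol change of 0.33 (adjusted p = 1.00; 0.00120 with the block).

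LATS2, a Hippo kinase that phosphorylates YAP and is itself a YAP target (chr13:20973036-21061586), rose with indacaterol early. In vehicle at 2 h its values were 35.1, 41.3, 48.6, 34.8 and 18.8, with indacaterol 76.2, 133, 205, 163 and 107 and with mometasone 45.2, 61.5, 65.9, 47.1 and 31.1. All indacaterol libraries lay above all vehicle libraries, while mometasone overlapped vehicle. At 1 h vehicle gave 46.9, 39.6, 60.4, 30.2 and 21.0 and indacaterol 45.6, 124, 79.1, 145 and 46.4, which overlapped: replicates 2 and 4 were the highest under indacaterol, and replicate 1 was below its vehicle library.

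Averaged over backgrounds, indacaterol raised LATS2 by 0.96 (SE 0.15, adjusted p = 3.42e-07) at 1 h (17 of 18 pairs) and 1.76 (SE 0.15, adjusted p = 3.83e-20) at 2 h (20 of 20 pairs), 1.95-fold and 3.39-fold. The change at 6 h was 0.31 (adjusted p = 0.179; 0.00136 with the replicate block) and at 18 h 0.14 (adjusted p = 0.980). The effect was larger at 2 h than at 1 h by 0.80 (SE 0.21, adjusted p = 0.0201), which was not called without replicate 1 or 3 (adjusted p = 0.288 and 0.423). It was smaller at 6 h and 18 h than at 1 h, with differences of -0.65 (SE 0.21, adjusted p = 0.0399) and -0.82 (SE 0.23, adjusted p = 0.0174), and neither was called without replicate 2 (adjusted p = 0.287 and 0.292) or without replicate 4 (adjusted p = 0.576 and 0.501). With equal library totals none of the 3 differences was called (adjusted p = 0.193, 0.238 and 0.170), nor was that at 6 h with no filter on low values (0.0663). The single comparison at 1 h, 1.06 (SE 0.30, adjusted p = 0.0373), was not called without replicate 2 or 4 either (adjusted p = 0.652 and 1.00), nor with equal library totals (0.324), with each time fitted alone (0.536) or with only these 2 groups in the fit (1.00).

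Over the 4 groups with indacaterol at 1 h, LATS2 was at 121 to 164 in replicate 2 and 129.6 to 169 in replicate 4, and at 45.6 to 58.8, 77.6 to 91.4 and 42.6 to 46.4 in replicates 1, 3 and 5. NR4A3 in the same libraries was at 21.5 to 105 and 39.8 to 142 in replicates 2 and 4, and at 6.13 to 24.9, 6.86 to 39.0 and 5.98 to 33.8 in the others. The same numbers were thus high for ANKRD1 with mometasone and for LATS2 with indacaterol. The part of the replicate in these values was not tested. With mometasone LATS2 had an averaged change of 0.38 at 2 h (17 of 20 pairs; adjusted p = 0.109, and 1.02e-04 with the block) and -0.23 at 6 h (adjusted p = 0.247, and 0.0128 with the block).

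**Figure D3:**
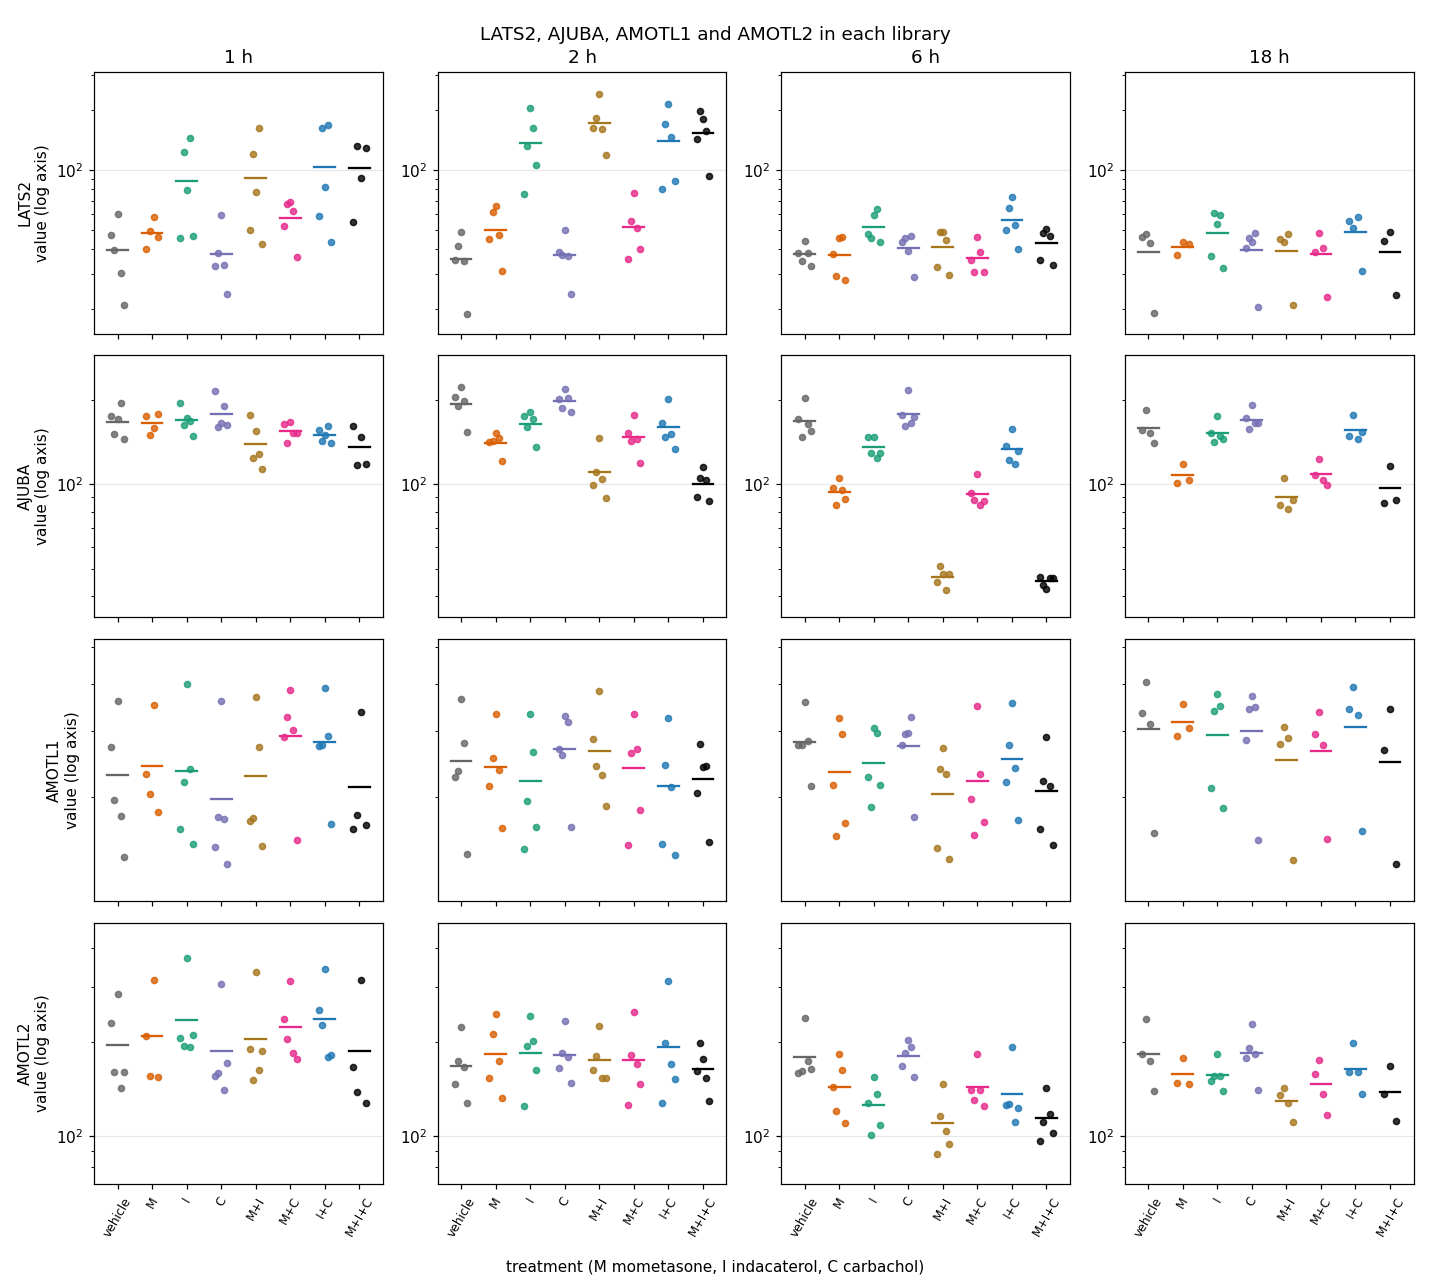
Each point is 1 library and each bar a group mean, on a log axis of the deposited value, for LATS2, AJUBA, AMOTL1 and AMOTL2 (rows) at 4 times (columns). The means of the 4 groups with indacaterol stand above those of the others for LATS2 at 2 h, and AJUBA is lowest, at 42.1 to 51.2, in the 2 groups with both mometasone and indacaterol at 6 h.

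AJUBA, a LIM-domain scaffold of cell junctions that binds and inhibits LATS kinases (chr14:22971177-22982551), fell with mometasone and with indacaterol. At 6 h vehicle gave 171, 148, 202, 164 and 155, mometasone 96.8, 84.7, 106, 95.8 and 89.1, indacaterol 147, 129, 147, 125 and 129 and the pair 45.1, 51.2, 47.9, 42.1 and 48.1. None of these 4 groups overlapped: indacaterol lay just below vehicle, mometasone below indacaterol, and the pair below mometasone. With carbachol added, the pair gave 46.8, 43.9, 42.4, 46.5 and 46.5, within the range of the pair.

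The averaged mometasone effect on AJUBA was -0.53 (SE 0.05, adjusted p = 1.86e-16) at 2 h, -1.20 (SE 0.05, adjusted p = 2.08e-44) at 6 h and -0.66 (SE 0.06, adjusted p = 4.48e-19) at 18 h, lower in every pair, with a 2.30-fold fall at 6 h. Each differed from the effect at 1 h, which was -0.16 (adjusted p = 0.0882; 2.05e-06 with the replicate block). The difference of 2 h from 1 h, -0.37 (SE 0.07, adjusted p = 4.42e-04), was not called without replicate 1 (adjusted p = 0.0523) or with equal library totals (0.171). Indacaterol lowered AJUBA, with log2 changes of -0.17 (SE 0.05, adjusted p = 0.0407) at 1 h in 13 of 18 pairs, and -0.36 (SE 0.05, adjusted p = 3.27e-09) at 2 h and -0.68 (SE 0.05, adjusted p = 8.47e-23) at 6 h in 20 of 20 pairs each. The 6 h effect differed from that at 1 h, by -0.51 (SE 0.07, adjusted p = 2.27e-08). The 1 h call ended without replicate 2, 4 or 5 (adjusted p = 0.211, 0.712 and 0.0893), with no filter on low values (0.0588), with equal library totals (0.0600), and when the 4 times were fitted separately (0.132). At 18 h the change was -0.15 (adjusted p = 0.269; 6.95e-04 with the block).

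Each interaction between 2 agents was taken with the third agent absent, so it rests on fewer libraries than an averaged effect. Of the 3 interactions, each tested at 4 times, AJUBA at 6 h was the only member called without the replicate block. The mometasone by indacaterol term was -0.69 (SE 0.15, adjusted p = 0.00462): mometasone changed AJUBA by -1.54 to -0.82 over the 4 backgrounds, more with indacaterol than without it. The call ended without replicate 1, 2 or 4 (adjusted p = 0.108, 0.0605 and 0.149) and with equal library totals (adjusted p = 0.832), where the log2 value stayed at -0.67. Of all genes, 0.0742%, 0.405%, 0.216% and 0.0674% were called for this interaction at 1, 2, 6 and 18 h. The interaction of indacaterol and carbachol called 0% of genes at 1, 6 and 18 h and 0.00674% at 2 h, and no member. Of the members, 1 (CCN2) had an unadjusted p under 0.05 at 1 h and 0 at the later times. The mometasone by carbachol interaction called 0% at each time and no member, with CCN2 at 2 h (-0.85, SE 0.33, adjusted p = 1.00) the 1 member under an unadjusted p of 0.05 at any time. The mometasone by indacaterol term was also called with the replicate block for CCN1 at 1 h (-0.51, adjusted p = 0.0340) and for CCN1 and ANKRD1 at 2 h (given above), and 0.882% of all genes were called over the 4 times, against 0.191% without it. With the block, AJUBA, AMOTL1 and CCN2 were called for indacaterol by carbachol at 1 h (adjusted p = 0.0296, 0.0374 and 0.0196). Over the 4 times the block called 3.39% of all genes for that interaction, against 0.00169% without it.

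The angiomotins AMOTL1 and AMOTL2 are junction proteins that bind YAP and are also its targets. AMOTL2 (chr3:134355345-134375417) was called lower at 6 h with mometasone, at -0.27 (SE 0.10, adjusted p = 0.0279) in 18 of 20 pairs, and with indacaterol, at -0.41 (SE 0.10, adjusted p = 0.00144) in 20 of 20 pairs. At 6 h vehicle gave 159, 162, 239, 174 and 164, mometasone 144, 121, 183, 163 and 109.9, indacaterol 128, 101, 155, 136 and 109 and the pair 87.7, 116, 147, 104 and 94.6. Replicate 3 was the highest library in each of these groups, indacaterol and the pair lay wholly below vehicle, and mometasone overlapped it. The mometasone call ended without replicate 1, 2, 4 or 5 (adjusted p from 0.0731 to 0.106) and with equal library totals (0.0515). The indacaterol effect at 6 h differed from that at 1 h, by -0.48 (SE 0.15, adjusted p = 0.0220), which was not called without replicate 1, 2 or 4 (adjusted p = 0.0865, 0.124 and 0.164) or with equal library totals (0.247). At 18 h the mometasone change was -0.26 (14 of 14 pairs; adjusted p = 0.0770, and 1.99e-07 with the replicate block), and the indacaterol change -0.18 (13 of 14 pairs; adjusted p = 0.767, and 0.0163 with the block).

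AMOTL1 (chr11:94706460-94876748) was not called in any averaged comparison without the replicate block. Its values ran from 13.3 to 40.4 over all libraries, with averaged changes of -0.29 to 0.06 for mometasone and -0.14 to -0.01 for indacaterol over the 4 times. With the replicate block, mometasone lowered it at 6 h (-0.29, 17 of 20 pairs, adjusted p = 1.29e-05 beside 0.0933 without it) and at 18 h (13 of 14 pairs, adjusted p = 0.00537 beside 0.528).

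TAGLN (transgelin, chr11:117199294-117207465), ACTA2 (smooth muscle actin, chr10:88935074-88991337) and MYL9 (a regulatory myosin light chain, chr20:36541519-36551447) are contractile genes of the SRF program. In the averaged comparisons without the replicate block they were called only at 18 h and only with mometasone. They did not move in 1 direction: ACTA2 rose, TAGLN and MYL9 fell. In mometasone alone against vehicle at 18 h none of the 3 was called, and with the replicate block all 3 were (adjusted p = 0.00349, 0.00131 and 1.95e-04), though the numbers did not meet the check for pairing there. At 18 h ACTA2 gave 9.79, 8.85, 9.86 and 13.9 in vehicle (replicates 2 to 5) and 14.3, 14.3 and 15.2 with mometasone (2 to 4), with no overlap. TAGLN gave 21.6, 14.9, 20.3 and 39.7 and 13.6, 8.47 and 16.9, which overlapped, with replicate 3 the lowest in both groups. MYL9 gave 255, 214, 199 and 390.2 and 183, 145 and 175, with no overlap and replicate 5 of vehicle far above the others. The smooth muscle genes MYH11, CNN1 and LMOD1 were low, with medians of 1.17, 2.46 and 1.67 over all libraries.

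Averaged over backgrounds at 18 h, ACTA2 rose by 0.44 (SE 0.13, adjusted p = 0.00608) in 14 of 14 pairs, MYL9 fell by 0.47 on the log2 scale (SE 0.10, adjusted p = 5.69e-05) in 14 of 14 pairs, and TAGLN fell by 0.52 (SE 0.19, adjusted p = 0.0296) in 11 of 14 pairs. The ACTA2 call ended without replicate 3 (adjusted p = 0.105), and the TAGLN call without replicate 1, 2 or 5 (adjusted p = 0.0669, 0.0951 and 0.113). ACTA2 and MYL9 at 18 h differed from their changes at 1 h (by 0.60, SE 0.18, adjusted p = 0.00967 and -0.39, SE 0.14, adjusted p = 0.0304). The ACTA2 difference was not called without replicate 3 (adjusted p = 0.0813), and the MYL9 difference was not called without any 1 of replicates 1 to 4 (adjusted p from 0.0550 to 0.196) or with scaling by median ratio (0.0577). In the same 18 h libraries the summed level of the 7 epithelial markers was 269 to 418.5 with mometasone and 437 to 923 without it, and that of the 4 mesenchymal markers 1678 to 2304 and 2111 to 2673. That of the 4 other smooth muscle genes was 4.0 to 7.11 with it and 4.72 to 7.60 without it. The part of these shifts in the 18 h results was not tested.

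With indacaterol none of the contractile genes was called, but with the replicate block TAGLN and MYL9 were lower at 6 h (-0.37 in 18 of 20 pairs, adjusted p = 1.10e-06 beside 0.160; -0.19 in 15 of 20 pairs, adjusted p = 1.35e-04 beside 0.180) and at 18 h (-0.46 in 13 of 14 pairs, adjusted p = 7.01e-08 beside 0.365; -0.18 in 14 of 14 pairs, adjusted p = 7.35e-05 beside 0.669). With mometasone at 6 h the block also called ACTA2 (0.15, adjusted p = 0.0436 beside 0.358) and MYL9 (-0.14, adjusted p = 0.00278 beside 0.241).

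**Figure D4:**
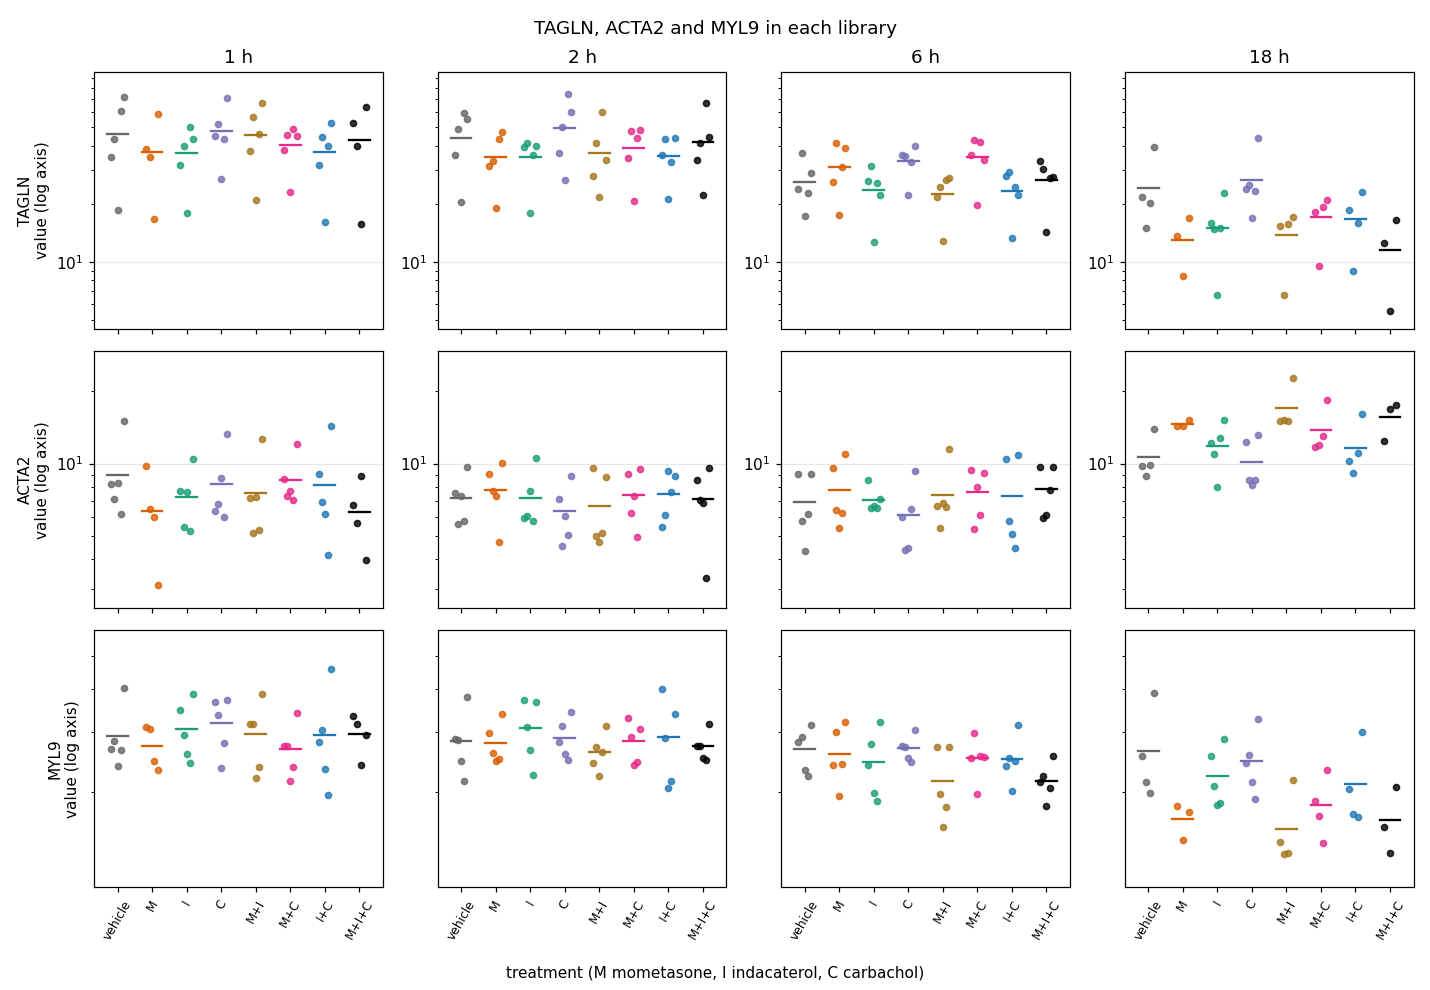
Each point is 1 library and each bar a group mean, on a log axis of the deposited value, for TAGLN, ACTA2 and MYL9 (rows) at 4 times (columns). At 18 h the groups with mometasone are shifted up for ACTA2 and down for MYL9, while the libraries of one group spread widely for TAGLN.

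Single agents against vehicle gave as many calls as the averaged comparisons or fewer. Mometasone alone called 2, 3, 4 and 3 members at 1, 2, 6 and 18 h, where 0.472%, 1.99%, 9.61% and 9.1% of all genes were called. Indacaterol alone called 1, 2, 1 and 0 members (1.4%, 3.91%, 1.74% and 0.202% of all genes), with 0 members under an unadjusted p of 0.05 at 18 h. Carbachol alone called 1 member, CCN2, at 1 h and none later (0.0809%, 0.027%, 0% and 0.00674% of all genes), with 1, 0 and 0 members under an unadjusted p of 0.05 at 2, 6 and 18 h. ANKRD1 with mometasone alone at 18 h was not called without replicate 2 (adjusted p = 0.0862). AJUBA with mometasone alone was not called with equal library totals at 2 or 18 h (adjusted p = 0.207 and 0.248), nor with only these 2 groups in the fit (0.0868 and 0.0618). CCN2 with mometasone alone at 1 h was not called with only these 2 groups in the fit (adjusted p = 0.529). All of these comparisons share the vehicle libraries of their time.

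The averaged mometasone effect differed from that at 1 h for 1, 3 and 5 members at 2, 6 and 18 h (1.25%, 17.4% and 17.4% of all genes). That of indacaterol differed for 3, 6 and 2 members (1.69%, 7.53% and 3.39%), and that of carbachol for 0, 1 and 1 (0.0202%, 0.0742% and 0.0674%), with 2 members under an unadjusted p of 0.05 at 2 h. With the replicate block, 18, 18 and 7 such differences were called for the 3 agents over the later times, against 9, 11 and 2 without it. Of all genes over these times, the block called 23.8%, 13.1% and 0.27%, against 12%, 4.2% and 0.054% without it. In vehicle alone CCN2 fell after 1 h: the log2 difference was -1.20 (SE 0.23, adjusted p = 0.00745) at 2 h and -0.93 (SE 0.23, adjusted p = 0.0362) at 6 h, the 1 member called at each (0.0135% and 0.324% of all genes). At 18 h no member was called (0.121%), and 2 had an unadjusted p under 0.05. The 2 h fall was not called without replicate 1, 3 or 5 (adjusted p = 0.380, 0.175 and 0.228). The 6 h fall was not called without replicate 1, 2, 3 or 5 (adjusted p from 0.107 to 0.229). With equal library totals neither was called (adjusted p = 0.828 and 0.426), and that at 6 h was not with no filter on low values (0.0584). CCN1 in vehicle ran from 445 to 691 at 1 h and from 352 to 503 at 2 h.

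In order of group means, ANKRD1 was highest at 1 h with all 3 agents, at 254 ± 74.7 (SD, n = 4), followed by the pair with indacaterol at 1 h (218 ± 124, SD, n = 5) and all 3 agents at 2 h (212 ± 85.5, SD, n = 5). These neighbours overlapped. It was lowest at 6 h with indacaterol, at 5.08 ± 0.586 (SD, n = 5), and with indacaterol and carbachol (5.41 ± 1.32, SD, n = 5), which also overlapped. CCN2 was highest with all 3 agents at 1 h, 1039 ± 217 (SD, n = 4), and lowest with indacaterol and carbachol at 6 h, 77.8 ± 14.8 (SD, n = 5). Their ranges overlapped those of the next groups, mometasone with indacaterol at 1 h (705 to 1155) and indacaterol at 6 h (75.7 to 108). CCN1 was highest with all 3 agents at 1 h, 1027 ± 478 (SD, n = 4), and lowest with all 3 at 6 h, 123 ± 17.5 (SD, n = 5). Their ranges, 552 to 1441 and 102 to 144, overlapped those of indacaterol with carbachol at 1 h (681 to 1291) and mometasone with indacaterol at 6 h (111 to 159).

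Over the 32 group means, centred within each time, CCN2 and ANKRD1 had a Pearson r of 0.80, CCN1 and AJUBA 0.89, CCN1 and AMOTL2 0.73, and CCN1 and CCN2 -0.47. The 32 means share the same 3 agents, cell line and replicate numbers, so these r values describe the patterns and carry no test. Among 11197 genes, the patterns most like ANKRD1 were those of GADD45B, a stress-induced gene (0.952), ERRFI1, an inhibitor of EGF receptor signalling (0.951), and PTGER4, a prostaglandin E2 receptor gene (0.948). Those most like CCN2 were FOSL2, an AP-1 subunit (0.918), BCL6, a transcriptional repressor (0.909), and SLC19A2, a thiamine transporter gene (0.902). Those most like CCN1 were TNFRSF12A, the receptor of TWEAK (0.926), ZBTB18, a transcriptional repressor (0.922), and NUAK1, a kinase of the AMPK family (0.919).

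The other YAP and TEAD targets, 17 genes of a published activity signature of which 16 were tested, also moved both ways. With mometasone 1, 1, 3 and 2 were called higher and 2, 2, 6 and 9 lower at 1, 2, 6 and 18 h. Their median log2 change was 0.06, 0.10, -0.01 and -0.24, beside 0.01, 0.00, 0.02 and 0.05 for all genes. The shares of all genes called were 1.8%, 4.98%, 18.4% and 17.6% higher and 0.836%, 3.59%, 14.6% and 13.8% lower. F3, the gene of tissue factor, fell by 2.45 on the log2 scale at 6 h (SE 0.15, adjusted p = 1.66e-30), MYOF, a membrane repair protein, by 1.60 at 18 h (SE 0.12, adjusted p = 4.51e-23), and FJX1, a secreted signalling protein, by 1.55 at 18 h (SE 0.08, adjusted p = 5.14e-39). GADD45A, a stress gene, rose by 1.17 (SE 0.06, adjusted p = 2.86e-37) at 2 h.

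With indacaterol 3, 3, 0 and 0 of the YAP and TEAD targets were higher and 1, 1, 4 and 3 lower, with medians of 0.05, 0.05, -0.15 and -0.17 beside 0.00, 0.01, 0.01 and 0.00 for all genes. The shares of all genes called were 3.28%, 8.13%, 6.85% and 0.789% higher and 1.23%, 5.41%, 6.27% and 0.809% lower. NUAK2, a kinase that is a YAP target, rose by 1.56 (SE 0.08, adjusted p = 5.10e-37) at 1 h and had a change of -0.63 (SE 0.08, adjusted p = 1.49e-11) with mometasone at 2 h. GADD45A, which mometasone raised, was at -0.87 (SE 0.06, adjusted p = 9.73e-27) with indacaterol at 2 h. F3 at 6 h was lower with indacaterol as well, at -1.25 (SE 0.15, adjusted p = 1.18e-11). Carbachol called 1 of the 16, GADD45A at 1 h (0.28, SE 0.06, adjusted p = 0.00703), and none later, with 1, 0 and 0 under an unadjusted p of 0.05. It called 0.189% of all genes higher at 1 h and 0.121% at 2 h.

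The other MRTF and SRF targets numbered 20, of which 19 were tested. With mometasone 0, 4, 7 and 2 were higher and 0, 2, 5 and 11 lower at the 4 times, with a median of -0.26 at 18 h beside 0.05 for all genes. At 1 h 3 had an unadjusted p under 0.05. The shares of all genes called were 1.8%, 4.98%, 18.4% and 17.6% higher and 0.836%, 3.59%, 14.6% and 13.8% lower. VCL, the adhesion protein vinculin, rose by 1.55 (SE 0.13, adjusted p = 1.90e-20) at 6 h, where it was lower with indacaterol (-0.71, SE 0.13, adjusted p = 1.01e-05). TAGLN2, a relative of TAGLN, and TPM1, a tropomyosin, were lower with mometasone at 18 h (-1.02, SE 0.05, adjusted p = 4.38e-37 and -0.95, SE 0.05, adjusted p = 1.00e-39). With indacaterol 0, 1, 0 and 0 were higher and 0, 4, 9 and 1 lower, with a median of -0.19 at 6 h beside 0.01, and ZYX, a focal adhesion protein, was at -0.46 (SE 0.04, adjusted p = 3.25e-16). At 1 h with indacaterol 3 had an unadjusted p under 0.05. Indacaterol called 3.28%, 8.13%, 6.85% and 0.789% of all genes higher and 1.23%, 5.41%, 6.27% and 0.809% lower. Carbachol called none at any time, and 2, 1, 0 and 0 had an unadjusted p under 0.05.

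**Figure D5:**
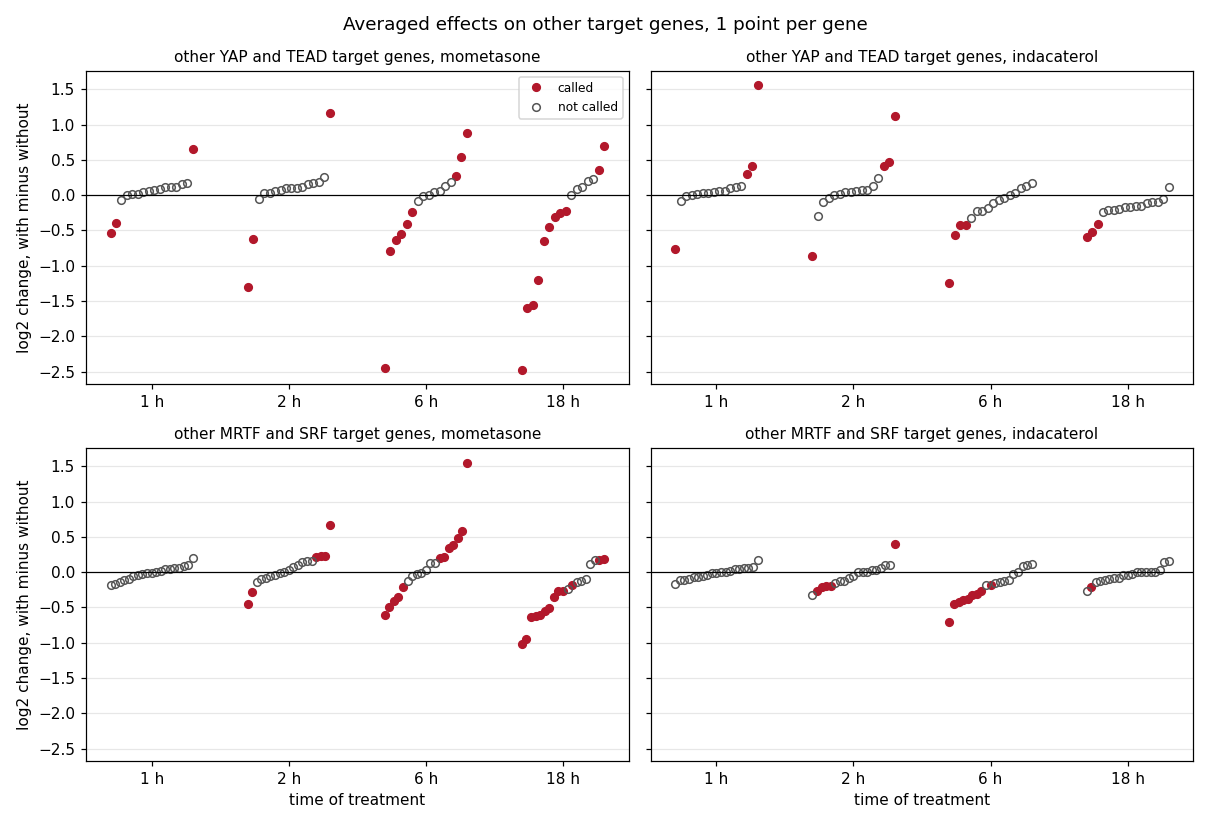
Each point is 1 gene, sorted within a time, with its averaged log2 change for mometasone (left) or indacaterol (right); filled points are called and open points are not. The upper panels hold the 16 YAP and TEAD targets tested and the lower panels the 19 MRTF and SRF targets, with F3 the lowest point at 6 h, -2.45, under mometasone.

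Of 25 components of the Hippo, TEAD and MRTF pathways and their regulators, mometasone called 0, 2, 2 and 1 higher and 0, 0, 4 and 6 lower at the 4 times, with 0 under an unadjusted p of 0.05 at 1 h. The shares of all genes called with it were 1.8%, 4.98%, 18.4% and 17.6% higher and 0.836%, 3.59%, 14.6% and 13.8% lower. Indacaterol called 1, 3, 3 and 0 components higher and 0, 2, 1 and 0 lower, with 2 under an unadjusted p of 0.05 at 18 h. The shares of all genes called with it were 3.28%, 8.13%, 6.85% and 0.789% higher and 1.23%, 5.41%, 6.27% and 0.809% lower. Carbachol called none, with 1 under an unadjusted p of 0.05 at 1 h and 0 later. WWC1 (KIBRA), an upstream Hippo activator, rose with indacaterol at 2 h (0.99, SE 0.05, adjusted p = 3.88e-35) and was lower with mometasone at 18 h (-0.67, SE 0.06, adjusted p = 1.26e-18). NF2 (merlin), another activator of the kinases, was lower with mometasone at 18 h (-0.93, SE 0.05, adjusted p = 6.36e-32), and VGLL3, a TEAD cofactor, was higher (0.87, SE 0.24, adjusted p = 0.00253). AMOT, the founding angiomotin, rose with indacaterol at 6 h, by 0.70 (SE 0.08, adjusted p = 1.87e-11). With the replicate block, the calls over the 4 times rose from 15 to 36 for mometasone and from 10 to 22 for indacaterol among these components, from 15 to 33 for indacaterol among the MRTF and SRF targets, and from 15 to 26 among the YAP and TEAD targets. Over the same times the share of all genes called rose from 18.9% to 31.5% for mometasone and from 8.19% to 19.1% for indacaterol.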

How the data were processed

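RNA-seq libraries (TruSeq, from total RNA, per the labels' protocols) of BEAS-2B cells were compared in 32 groups of treatment and time. The deposited values are a normalised signal per gene that the authors call TPM, per the file headers; their sums run from 847289 to 1498421 per library, so the scale is not a strict per-million one and was handled as a signal on the log2 scale. Reads were handled with bcl2fastq 2.17.1.14 and STAR 2.4.2a on GRCh38, per the submitters' processing notes; for the quantifier, annotation and strand setting, the sources used here give no statement, so antisense or overlapping genes may share reads. Depth is unknown, so no counting intervals are given; 12521 to 13239 genes were at 1 or more per library. Of the columns, 10 were not used: 4 marked as excluded by the authors and 6 headed 8 h, which match no label.

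The filter asked for 5 or more libraries at 1 or higher, which kept 14827 genes and left out 14446. These were fitted with limma 3.58.1 (R 4.3.3, and the data.table package, version 1.17.8) on log2(value + 1), with 1 mean per group and a mean-variance trend, and p was adjusted by Benjamini-Hochberg over all tested genes within each comparison and time. Fold changes on this scale understate those of low genes. An averaged effect is the mean of the 4 groups with an agent minus the 4 without it. Single-agent, interaction, later-minus-1 h and vehicle comparisons came from the same model. An interaction is the pair minus each agent alone plus vehicle, with the third agent absent. That model was run on simulated data for the averaged indacaterol effect at 6 h only. The simulated noise was independent between libraries, with no replicate effect, so the other comparisons and shared replicate spread were not tested. Values and figures were handled in Python 3.11.15 with numpy 2.4.6, pandas 2.3.3 and matplotlib 3.10.9. A pair is 2 same-numbered libraries that differ in the agent only.

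Whether replicate numbers pair the libraries was checked from the correlation of deviations from group means: in each of the 12 averaged comparisons every number correlated above 0.1 (0.132 to 0.943), while 5 of the 12 single-agent comparisons did not meet this. The reported fit has no block, although the numbers met the check in all 12 averaged comparisons, and the block is an alternative. Spread shared by a replicate number thus stays in the error of the reported fit. Over the results of single members the block ended none of the 70 calls it could test and added 64. A result not called in the reported fit is therefore not an absence of change. The members and gene lists (other YAP and TEAD targets, other MRTF and SRF targets, pathway components, epithelial, mesenchymal, smooth muscle, endothelial and leukocyte markers) were chosen with earlier results of these data known. All members are named; from each list, at most 3 called genes with the largest change for an agent and time; and the 3 genes most like CCN1, CCN2 and ANKRD1 by Pearson r of centred group means. Alternatives were another pseudocount (0.1), other filters, 2 rescalings, the replicate block, separate fits per time or per pair of groups, no trend, and leaving out each replicate number or the 6 libraries over 20% mitochondrial. An item among the pathway components is not reported here by name.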

Additional observations from a re-analysis of the deposited data

Results flagged for a closer look

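Over the 300 sets of 1 member and 1 group of 4 or 5 libraries, 24 (8.0%) had a library whose gap to the nearest other library exceeded Dixon's 95% critical value for the group's range; chance alone gives about 1 in 20 groups. These were mostly libraries of replicates 3 and 5. CCN1 stood at 172 in replicate 5 of mometasone with indacaterol at 18 h (others 194 to 197). CCN2 stood at 319 in replicate 3 of mometasone with carbachol at 6 h (others 156 to 186) and 242 in replicate 3 of mometasone with carbachol at 18 h (others 187 to 190.5). AMOTL1 stood at 35.9 in replicate 3 of carbachol at 1 h (others 13.3 to 17.7) and 33.7 in replicate 3 of mometasone with indacaterol and carbachol at 1 h (others 16.5 to 17.9). AMOTL2 stood at 370.5 in replicate 3 of indacaterol at 1 h (others 192 to 210.3), 307 in replicate 3 of carbachol at 1 h (others 140.4 to 171), 334 in replicate 3 of mometasone with indacaterol at 1 h (others 151 to 189), 239 in replicate 3 of vehicle at 6 h (others 159 to 174), 183 in replicate 3 of mometasone with carbachol at 6 h (others 125 to 141) and 194 in replicate 3 of indacaterol with carbachol at 6 h (others 111 to 126). LATS2 stood at 19.0 in replicate 5 of vehicle at 18 h (others 42.9 to 47.5), 20.4 in replicate 5 of carbachol at 18 h (others 40.3 to 48.1) and 21.0 in replicate 5 of mometasone with indacaterol at 18 h (others 43.3 to 47.7). AJUBA stood at 216 in replicate 3 of carbachol at 6 h (others 162 to 177). TAGLN stood at 17.9 in replicate 3 of indacaterol at 2 h (others 36.0 to 41.4) and 6.75 in replicate 3 of mometasone with indacaterol at 18 h (others 15.4 to 17.1). ACTA2 stood at 15.1 in replicate 5 of vehicle at 1 h (others 6.15 to 8.32), 12.7 in replicate 5 of mometasone with indacaterol at 1 h (others 5.12 to 7.26), 8.52 in replicate 1 of indacaterol at 6 h (others 6.51 to 7.09), 11.5 in replicate 5 of mometasone with indacaterol at 6 h (others 5.39 to 6.86) and 22.6 in replicate 5 of mometasone with indacaterol at 18 h (others 15.0 to 15.1). MYL9 stood at 404 in replicate 5 of vehicle at 1 h (others 239 to 283) and 217 in replicate 5 of mometasone with indacaterol at 18 h (others 131 to 143). What sets these libraries apart was not tested.

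The averaged effect of an agent differed between a later time and 1 h, by a test of the difference itself (limma, adjusted p under 0.05), for 22 combinations of member and time. For AJUBA with mometasone the log2 difference was -0.37 at 2 h, -1.04 at 6 h and -0.50 at 18 h. For ANKRD1 with mometasone the log2 difference was -0.89 at 6 h and -1.73 at 18 h. For CCN1 with mometasone the log2 difference was -1.40 at 6 h and -1.26 at 18 h. For ACTA2 with mometasone the log2 difference was 0.60 at 18 h. For MYL9 with mometasone the log2 difference was -0.39 at 18 h. For CCN1 with indacaterol the log2 difference was -0.62 at 2 h and -0.73 at 6 h. For CCN2 with indacaterol the log2 difference was 0.65 at 2 h and -0.71 at 6 h. For LATS2 with indacaterol the log2 difference was 0.80 at 2 h, -0.65 at 6 h and -0.82 at 18 h. For AJUBA with indacaterol the log2 difference was -0.51 at 6 h. For AMOTL2 with indacaterol the log2 difference was -0.48 at 6 h. For ANKRD1 with indacaterol the log2 difference was -1.59 at 6 h and -0.62 at 18 h. For CCN2 with carbachol the log2 difference was -0.93 at 6 h and -0.84 at 18 h.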

How the results depend on the processing

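The results followed here were 206 results of single members: every averaged effect, and any other result called in the reported or an alternative fit. Combinations against vehicle were left out. In the reported fit 72 of the 206 were called, and as the 206 were partly picked by being called, this is not a call rate. No log2 change called in the reported or the alternative fit reversed its sign under any of the 15 alternative settings it was run under. Signs of results called in neither fit were not compared. The fit of each time alone covered 48 of the 72 calls, and that of only the compared groups 17. The pseudocount of 0.1 and the fit without a trend changed no call. Equal library totals ended 19 of the 72 calls and added 3, and scaling by median ratio ended 1 and added 6. Leaving out 1 replicate number ended 8 to 14 calls. The replicate block ended none of the 70 calls it could test and added 64; it could not be fitted within a time for vehicle across times. Equal totals moved the median change of all genes by more than 0.1 in 3 single-agent comparisons (up to 0.14, mometasone at 18 h), 4 interactions (up to -0.16), 1 combination (-0.13) and 1 vehicle comparison (0.11), and in none of the 12 averaged comparisons.

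With the replicate block, the number of member calls over all times went from 11 to 23 for indacaterol and from 1 to 3 for carbachol, averaged over backgrounds. For single agents against vehicle it went from 12 to 19 for mometasone, 4 to 11 for indacaterol and 1 to 2 for carbachol. The share of all genes called with the block is not given here for single agents. This rise is thus not set beside that of all genes and is not read as a result about the members. It went from 0 to 3 for the indacaterol by carbachol interaction and 1 to 4 for mometasone by indacaterol. For later minus 1 h it went from 9 to 18, 11 to 18 and 2 to 7 for mometasone, indacaterol and carbachol. Among other YAP and TEAD targets it went from 15 to 26 for indacaterol and 1 to 2 for carbachol, among MRTF and SRF targets from 15 to 33 and 0 to 1, and among pathway components from 15 to 36 for mometasone and 10 to 22 for indacaterol. Not every single-agent comparison met the check for pairing by number. With the block, averaged calls among all genes rose from 18.9% to 31.5% for mometasone, 8.19% to 19.1% for indacaterol and 0.0776% to 0.523% for carbachol. For the indacaterol by carbachol and mometasone by indacaterol interactions they rose from 0.00169% to 3.39% and 0.191% to 0.882%. For later minus 1 h they rose from 12% to 23.8%, 4.2% to 13.1% and 0.054% to 0.27% for the 3 agents.

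Equal totals left 0 mometasone by indacaterol calls (1 as reported), 5 and 0 later-minus-1 h calls for indacaterol and carbachol (11 and 2), 0 vehicle calls (2) and 0 YAP and TEAD calls for carbachol (1). Median ratio scaling gave 2 averaged carbachol calls. With each time fitted alone, carbachol alone had 0 calls and the YAP and TEAD targets with carbachol 0. With only the compared groups in the fit, carbachol alone had 0 calls. With no filter, vehicle had 1 call. Without 1 replicate number the counts ran from 1 to 2 for averaged carbachol, 0 to 1 for mometasone by indacaterol, 6 to 10 and 1 to 2 for later minus 1 h with indacaterol and carbachol, 0 to 2 for vehicle, and 0 to 1 for YAP and TEAD targets with carbachol. The shares of all genes called under these settings are not given here, so these counts are not read as a result about the members. The cause of the changes in these counts was not tested. The number of libraries and the unknown depth limit how small a change can be called.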
